A study of Homo sapiens with 6 samples.

Results

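MYC, the kinases PIM1 and PIM3, the AP-1 subunits FOS, FOSL1, FOSL2, JUN, JUNB and JUND, and the transcription factor EGR1 form a set of 10 growth-response regulators, out of 13161 genes in the normalised table. The set was chosen from these data, for the higher PIM1 and MYC in induced cells, so every difference between the groups given for these 10 genes is a description and carries no p-value. All 10 were measured and passed the filter on low values. Log2 differences are dox minus no dox on log2(normalised count + 1), fitted by limma and given with their standard error (SE). A pair is the dox and the no dox library that share a replicate number, and the printed SE does not use this pairing.

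The libraries were made from polyadenylated RNA of hTERT-RPE1, a line of human retinal pigment epithelial cells immortalised with telomerase. The line carries a tetracycline-inducible transgene for FLAG-tagged FOXM1c, a splice form of the forkhead transcription factor FOXM1, which is known for activating genes of the late cell cycle. In the dox group (3 libraries) doxycycline at 1 µg/mL was added at intervals of 24 h over 48 h. In the no dox group (3 libraries) the same cell line is named, the genotype label reads WT, and the titles mark the cells as grown without doxycycline, although the treatment text is identical for all 6. No doxycycline-treated cells lacking the transgene were analysed here, so effects of the drug and of FOXM1 cannot be told apart. Separate cultures are not named in the labels, and any p-value then reflects the spread among these 6 libraries, which may be technical.

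FOXM1 itself had 65289, 66830 and 74976 normalised counts in dox replicates 1 to 3, against 5009, 4383 and 4292 in no dox replicates 1 to 3, a 15.1-fold difference (log2 3.92, limma adjusted p 4.49e-06). Library totals ranged from 25148936 to 49882123 reads in dox and from 15094498 to 32280300 in no dox. Markers of differentiated pigment epithelium were absent or low: RPE65 reached at most 0.220 FPKM (CPM, which are reads scaled to library size, divided by the gene width in kilobases) and TYR at most 0.0215 FPKM, while OTX2 averaged 2.64 FPKM in dox and 2.73 FPKM in no dox, MITF 2.11 and 2.13 FPKM, and PAX6 1.20 and 0.900 FPKM. EPCAM was listed at 0 in all 6 libraries, and the keratins KRT8 and KRT18 averaged 30.8 and 55.4 FPKM in dox, against 24.7 and 43.3 FPKM in no dox. CDH1 averaged 0.00505 and KRT19 0.0549 FPKM in dox, against 0.00399 and 0.0304 FPKM in no dox, while CDH2 averaged 36.1 and 33.1 FPKM. The 5 fibroblast and mesenchyme markers summed to 303 to 422 FPKM in dox libraries and 331 to 440.2 FPKM in no dox libraries. Most of that was VIM, while COL1A2 averaged only 0.0197 FPKM in dox and 0.0123 FPKM in no dox. THY1 averaged 24.1 and 28.8 FPKM, PDGFRB 11.2 and 11.4 FPKM, and COL1A1 8.63 and 8.99 FPKM. The 4 immune markers together reached at most 0.0654 FPKM in a dox library and 0.0633 FPKM in a no dox library, and the 2 endothelial markers at most 0.0441 and 0.0226 FPKM.

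The PIM proteins are serine/threonine kinases that are active as soon as they are made, so their activity follows largely from their abundance. That abundance is set by transcription, typically through JAK-STAT signalling, and by mRNA and protein turnover. PIM protein was not measured here. AP-1 is a dimer of basic leucine zipper proteins: FOS-family members need a JUN-family partner, whereas JUN proteins can also pair with each other. FOS and EGR1 are immediate-early genes, switched on within minutes of growth factor signalling through ERK and serum response factor (SRF) and switched off again soon after, while MYC is the basic helix-loop-helix factor that pairs with MAX and drives ribosome production and growth.

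PIM1 and PIM3, the kinases of the set, were both higher in dox, PIM1 about as much in every pair and PIM3 less. The promoter windows of both genes are shown because both are rich in G and C and hold repeated GC boxes, which the choice of genes did not use. They come from RefSeq on GRCh38.p14, run 5′ to 3′ on the gene's strand from 250 bases before to 20 after the annotated start, at chr6:37169902-37170171 (plus strand) and chr22:49960522-49960791 (plus strand), and capitals mark the GC box GGGCGG or its reverse complement.
PIM1: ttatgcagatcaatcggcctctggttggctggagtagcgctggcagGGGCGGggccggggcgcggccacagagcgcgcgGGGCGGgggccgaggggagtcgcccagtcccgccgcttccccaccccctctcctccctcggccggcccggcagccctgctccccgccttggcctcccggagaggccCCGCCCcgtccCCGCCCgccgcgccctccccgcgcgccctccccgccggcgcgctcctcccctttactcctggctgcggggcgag
PIM3: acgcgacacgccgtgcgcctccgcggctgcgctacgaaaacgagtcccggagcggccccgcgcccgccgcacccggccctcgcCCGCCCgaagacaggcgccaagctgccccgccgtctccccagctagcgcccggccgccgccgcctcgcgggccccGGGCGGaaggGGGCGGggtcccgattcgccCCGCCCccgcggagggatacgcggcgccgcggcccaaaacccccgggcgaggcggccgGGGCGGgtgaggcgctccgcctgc
The PIM1 window held 4 GC boxes and the PIM3 window 5, and neither held a TATA box (TATAAA) or a STAT site (TTCNNNGAA). GC content over the 300-base table entry was 79.7% for PIM1 and 81.3% for PIM3, against a median of 58.7% over all 35116 RefSeq promoters. At least 1 GC box stood in 45.0% of those promoters, so a match by itself is common. The table entry of JUND also held repeated GC boxes, at a GC content of 77.0%, so the trait is not particular to PIM1 and PIM3.

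PIM1, a kinase that promotes survival and cell cycle progression and lies at chr6:37137979-37143202 (hg19, plus strand), had 813, 1178 and 1149 normalised counts in dox replicates 1 to 3, against 429, 508 and 557 in no dox replicates 1 to 3. The groups did not overlap: the lowest dox library stood above the highest no dox library. The log2 difference was 1.06 (SE 0.16, n = 3 each), a 2.08-fold higher level, and the 3 replicate pairs gave 0.92, 1.21 and 1.04. Replicate 1 was the lowest library in both groups. In RNA from whole cultures, a difference in the share of cells that express a gene and a difference per cell cannot be told apart.

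PIM3, a close relative of PIM1 at chr22:50354161-50357728 (hg19, plus strand), had 1014, 1224 and 1189.8 normalised counts in dox replicates 1 to 3, against 896, 802 and 841 in no dox replicates 1 to 3. The groups did not overlap here either, though dox replicate 1 stood only slightly above no dox replicate 1. PIM3 thus had a log2 difference of 0.43 (SE 0.098), or 1.35-fold, with 0.18, 0.61 and 0.50 in the 3 pairs. In both kinases the pair of replicate 1 gave the smallest difference and the pair of replicate 2 the largest.

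**Figure D1:**
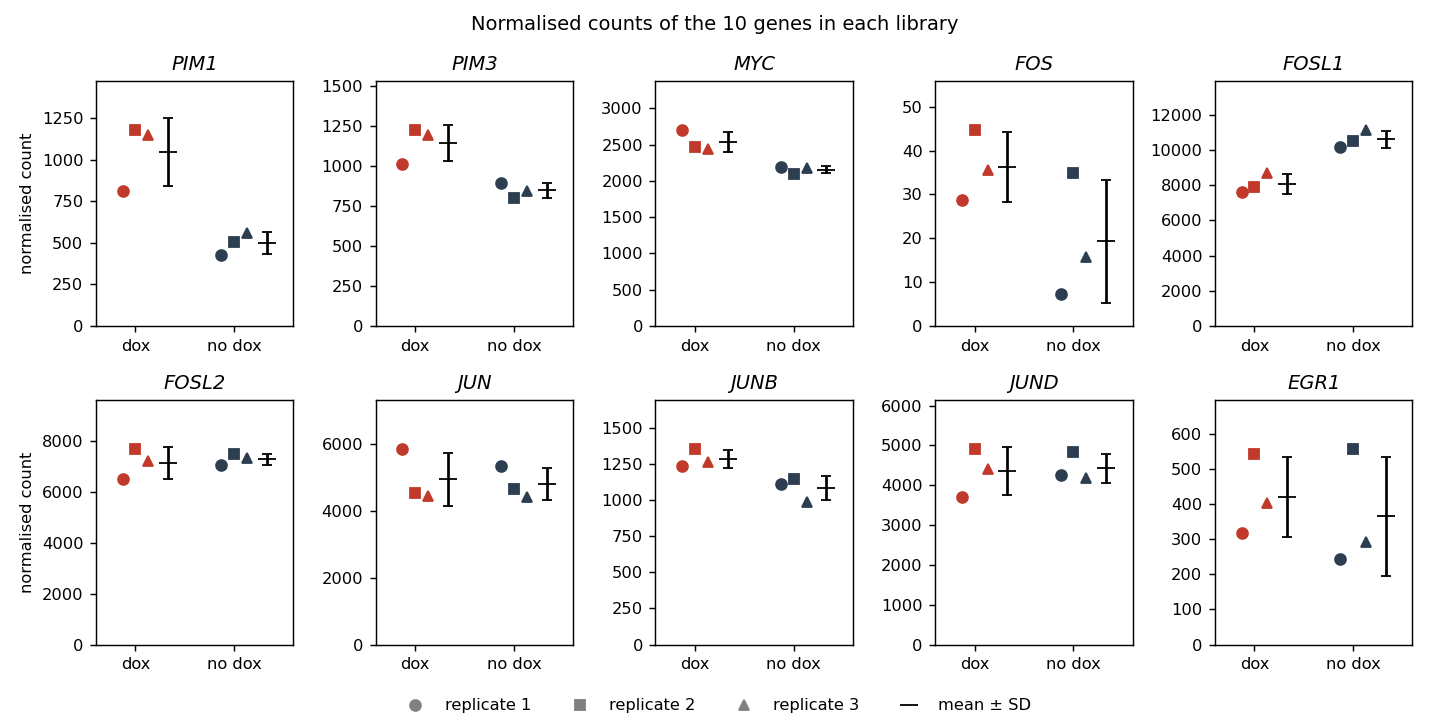
Normalised counts (y axis, from 0, one scale per gene) of the 10 genes in the 3 dox and 3 no dox libraries, with the replicate number as marker shape and mean ± SD at the side. PIM1, PIM3, MYC and JUNB lie higher in every dox library, FOSL1 lies lower in every dox library, and the other 5 genes overlap between the groups.

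FOS and EGR1, both immediate-early genes though not the only ones of the set, varied widely between replicates and overlapped between the groups. Their promoter windows are shown because they carry some of the elements for which these genes are known. They come from RefSeq on GRCh38.p14 with the same limits as above, at chr14:75278578-75278847 (plus strand) and chr5:138465229-138465498 (plus strand). Capitals mark, in FOS, the core of the cyclic AMP response element (TGACG, CRE core) and the TATA box (TATAAA), and in EGR1 the CArG boxes, the motif bound by SRF.
FOS: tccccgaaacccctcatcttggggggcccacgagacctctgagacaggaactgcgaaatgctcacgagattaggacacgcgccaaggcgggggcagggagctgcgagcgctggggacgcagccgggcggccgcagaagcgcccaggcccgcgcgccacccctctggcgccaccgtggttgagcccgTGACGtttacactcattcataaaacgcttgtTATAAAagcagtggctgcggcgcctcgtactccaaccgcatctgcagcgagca
EGR1: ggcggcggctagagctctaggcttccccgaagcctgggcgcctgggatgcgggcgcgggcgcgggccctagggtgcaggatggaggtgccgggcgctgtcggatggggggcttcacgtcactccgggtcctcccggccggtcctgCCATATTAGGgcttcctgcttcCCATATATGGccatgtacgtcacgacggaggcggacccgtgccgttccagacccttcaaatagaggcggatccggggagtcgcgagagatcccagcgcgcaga
The CRE core of FOS began 64 bases and the TATA box 33 bases before the start. The CArG boxes of EGR1 numbered 2 and began 105 and 83 bases before the start, and such a box stood in 1.29% of all RefSeq promoters. In the table window, which begins 250 bases before the start, FOS held no CArG box, and bases further upstream were not searched.

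Across the 8 genes of the set with a RefSeq promoter entry, the CRE core occurred in 6 (FOS, FOSL2, JUN, JUNB, JUND and EGR1), against 24.6% of all promoters, and the GC box in 6 (PIM1, PIM3, FOS, FOSL2, JUN and JUND). A TATA box was found in FOS and JUNB (11.5% of all promoters). The forkhead core TAAACA occurred in JUNB alone, 166 bases before the start on the minus strand, and in 12.3% of all promoters. The CHR element TTTGAA, through which cell cycle genes are known to be controlled, occurred in EGR1 alone (15.2% of all promoters), as did the STAT site (7.66%). The E box CACGTG, the motif of MYC and MAX, was in none of the 8 and in 7.26% of all promoters. Both strands were searched, overlapping matches counted, and a match in these letters is a description of the window, not a bound site.

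FOS, the founding member of its family, lies at chr14:75745477-75748933 (hg19, plus strand) and had 28.8, 44.7 and 35.5 normalised counts in dox replicates 1 to 3, against 7.34, 34.9 and 15.7 in no dox replicates 1 to 3. The groups overlapped, since no dox replicate 2 stood above dox replicate 1. These values rest on 40, 73 and 31 reads in the dox libraries and on 8, 39 and 7 reads in the no dox libraries. On the log2 scale the difference was 1.11 with an SE of 0.52, and the pairs gave 1.84, 0.35 and 1.13. FOS had the largest estimate of the 10 genes and also the largest error.

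EGR1, a zinc finger factor at chr5:137801179-137805004 (hg19, plus strand), had 318, 543 and 402 normalised counts in dox replicates 1 to 3, against 245, 558 and 291 in no dox replicates 1 to 3. The groups overlapped, and the highest library of all 6 was no dox replicate 2. On the log2 scale the difference was 0.27 with an SE of 0.32, and the pairs gave 0.38, -0.040 and 0.46. With no dox replicate 1 left out it came to 0.028, and with no dox replicate 2 left out to 0.62.

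The spread between replicates is a measure the choice of genes did not use. FOS had a within-group SD of 0.78 on the log2(normalised count + 1) scale, larger than that of 98.5% of the 13153 tested genes, and EGR1 an SD of 0.52, larger than 95.4%. Low counts spread more, so the same was read among genes within 0.5 log2 units of the same level: FOS then stood at 89.0% of 703 genes and EGR1 at 98.5% of 1628. In both genes replicate 2 was highest and replicate 1 lowest, in dox as in no dox. EGR1 deviated from its group mean by -0.37 and -0.48 log2 units in replicate 1 of dox and of no dox, and by 0.40 and 0.71 in replicate 2.

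JUN had another order, with replicate 1 highest in both groups, 0.26 above the dox mean and 0.16 above the no dox mean. MYC was also highest in replicate 1 of both groups, which made 2 of the 10 genes, against 27.2% of all tested genes. JUND, FOSL2 and JUNB were highest in replicate 2 of both groups, as FOS and EGR1 were. That made 5 of the 10 genes, against 20.4% of all tested genes. At the other end MYC had an SD of 0.062, larger than that of 8.26% of tested genes and of 16.5% of those at the same level, followed by FOSL1 (0.085), FOSL2 (0.093) and JUNB (0.094). PIM1 lay between them at 0.25, larger than 75.6% of tested genes and 87.6% of those at the same level. What same-numbered libraries share is not stated in the labels, and its part in these values was not tested.

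**Figure D2:**
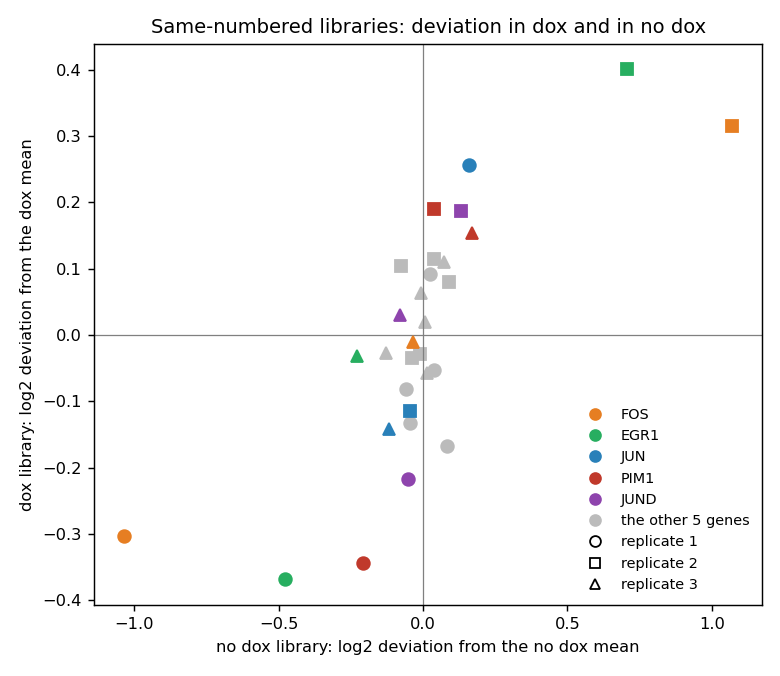
Deviation of each dox library from the dox mean (y axis, log2 units) against the deviation of the no dox library with the same number from the no dox mean (x axis, log2 units), 3 points per gene. FOS and EGR1 replicate 2 lie at the upper right and their replicate 1 at the lower left, JUN shows replicate 1 at the upper right, and MYC, FOSL1, FOSL2, JUNB and PIM3 (grey) stay near the centre.

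Among the FOS-family partners, FOSL1 was the one gene of the 10 that was lower in every dox library. FOSL1, also called FRA1, lacks the transactivation domain of FOS and is induced late and held by sustained ERK activity. It lies at chr11:65659520-65668044 (hg19, minus strand) and had 7588 normalised counts in dox replicate 1, 7877 in dox replicate 2 and 8669.8 in dox replicate 3, against 10149 in no dox replicate 1, 10501 in no dox replicate 2 and 11123 in no dox replicate 3. Each of the 3 dox libraries stood below each of the 3 no dox libraries. FOSL1 differed by a log2 value of -0.40 (SE 0.084), which is 0.759 times the no dox level, and the pairs lay close together at -0.42, -0.41 and -0.36.

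FOSL2, also called FRA2, lies at chr2:28615315-28640179 (hg19, plus strand) and had 6502, 7720.3 and 7228 normalised counts in dox replicates 1 to 3, against 7069, 7488 and 7328.5 in no dox replicates 1 to 3. Both the highest and the lowest of the 6 libraries were dox libraries. The log2 difference was -0.032 (SE 0.086).

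The JUN-family genes showed no common direction. JUNB, which often restrains JUN-driven proliferation, lies at chr19:12902310-12904124 (hg19, plus strand) and had 1242, 1360.5 and 1264 normalised counts in dox replicates 1 to 3, against 1112, 1151 and 991 in no dox replicates 1 to 3. Every dox library stood above every no dox library, and the log2 difference was 0.25 (SE 0.087), or 1.19-fold, with pairs of 0.16, 0.24 and 0.35.

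JUN, the strongest activator of its family and a gene that AP-1 itself can induce, lies at chr1:59246465-59249785 (hg19, minus strand). It had 5868, 4538 and 4456 normalised counts in dox replicates 1 to 3, against 5355, 4649.6 and 4422 in no dox replicates 1 to 3. In both groups replicate 1 stood apart above the others, and the groups overlapped. The log2 difference was 0.036 (SE 0.13).

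JUND, the member that is expressed most steadily in resting cells, lies at chr19:18390563-18392432 (hg19, minus strand) and had 3717, 4922 and 4414 normalised counts in dox replicates 1 to 3, against 4263, 4843 and 4180.1 in no dox replicates 1 to 3. The groups overlapped, with dox replicate 1 lowest and dox replicate 2 highest of all. The log2 difference was -0.032 (SE 0.12).

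Levels between genes were compared as CPM per kilobase of the merged exons of the gene. On that scale the AP-1 transcripts of these cells were led by FOSL1 and JUND. FOSL1 averaged 148 ± 9.44 in dox and 191 ± 8.41 in no dox (SD, n = 3 each). JUND averaged 81.3 ± 13.5 in dox and 81.2 ± 9.09 in no dox. FOS, by contrast, averaged 0.376 ± 0.0780 in dox and 0.198 ± 0.155 in no dox, the lowest of the 10 genes in both groups.

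Between these ends, in dox, JUN averaged 48.6 ± 7.27, FOSL2 34.8 ± 3.92, JUNB 24.6 ± 1.99, PIM3 16.1 ± 1.91, PIM1 12.2 ± 2.55 and EGR1 4.67 ± 1.37. In no dox the same scale gave JUN 46.3 ± 4.75, FOSL2 34.8 ± 1.85, JUNB 20.3 ± 2.11, PIM3 11.7 ± 0.504, PIM1 5.70 ± 0.723 and EGR1 3.98 ± 1.97. The order of all 10 genes, with MYC between FOSL2 and JUNB, was the same in both groups. The neighbours that overlapped were PIM3 and PIM1 in dox, and PIM1 and EGR1 in no dox.

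Within the FOS family, FOSL1 made up 80.8% of the summed level in dox (79.3% to 81.8%) and 84.5% in no dox (84.0% to 85.2%). FOSL2 made up 19.0% in dox and 15.4% in no dox, and FOS 0.204% in dox and 0.0862% in no dox. The FOSL1 share was lower in every dox library than in any no dox library. Within the JUN family, JUNB made up 15.9% in dox (15.7% to 16.1%) and 13.7% in no dox (13.5% to 13.9%), again without overlap. The JUND share was 52.5% in dox and 54.9% in no dox, and the JUN share 31.6% in dox and 31.4% in no dox, both with overlapping libraries.

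The order of levels depends on the length used. With the deposited FPKM, which divide by the authors' gene width, JUND averaged 63.9 FPKM, JUN 51.8 FPKM and FOSL1 46.5 FPKM in dox. In no dox JUND averaged 63.8 ± 7.15 FPKM and overlapped with FOSL1 at 60.1 ± 2.64 FPKM. FOSL1 still made up 73.3% of the FOS family in dox and 78.1% in no dox. The authors' width of FOSL1 is 6012 bases and its merged exons cover 1887 bases. That of FOS is 10007 bases, more than the 3457 bases its hg19 coordinates span.

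**Figure D3:**
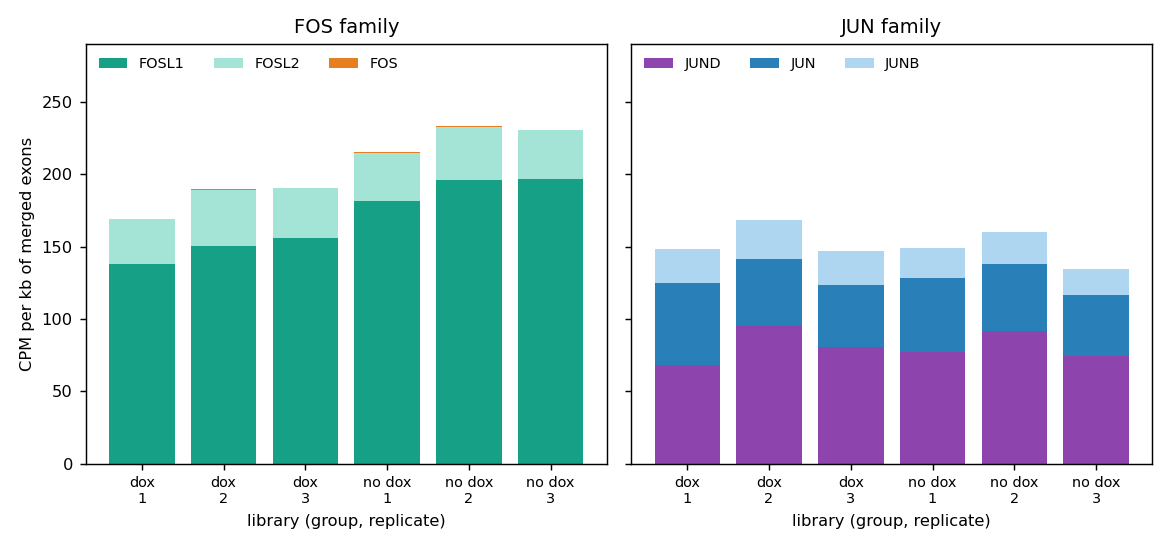
Stacked levels of the FOS-family genes (left) and JUN-family genes (right) in each library, in CPM per kilobase of merged exons, dox libraries before no dox libraries. FOSL1 fills most of each FOS-family bar and is shorter in the dox bars, FOS is a line at the top, and the JUN-family bars vary as much within a group as between the groups.

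MYC lies at chr8:128747680-128753674 (hg19, plus strand) and had 2702, 2473 and 2436 normalised counts in dox replicates 1 to 3, against 2192, 2099 and 2174 in no dox replicates 1 to 3. All dox libraries stood above all no dox libraries, yet the difference was small: log2 0.23 (SE 0.073), or 1.18-fold. The pairs gave 0.30, 0.24 and 0.16. Per kilobase of merged exons MYC averaged 29.3 ± 1.64 CPM in dox and 24.5 ± 0.318 in no dox. The authors' width of MYC, 8137 bases, also exceeds its 5995-base span, and with it MYC averaged 10.8 FPKM in dox and 9.03 FPKM in no dox.

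**Figure D4:**
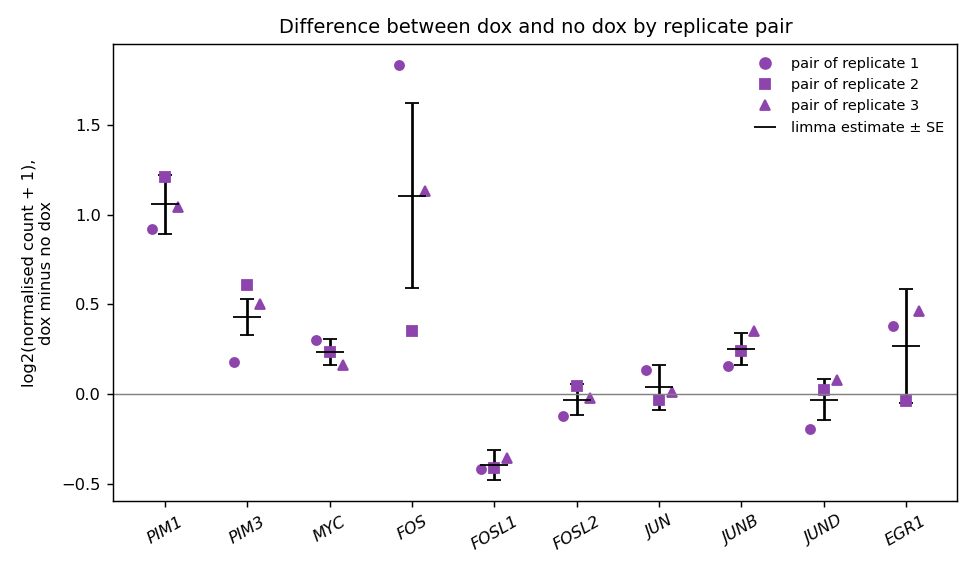
Log2 difference of dox minus no dox for the 10 genes (y axis, on log2(normalised count + 1)), as the limma estimate with its SE and as the 3 replicate pairs. PIM1 lies near 1.06 in all pairs, FOSL1 near -0.40, MYC near 0.23, and the pairs of FOS lie between 0.35 and 1.84.

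Counted over the set, which was chosen on this same contrast, 1 of the 10 genes (PIM1) was called higher and 0 lower at a Benjamini-Hochberg adjusted p under 0.05 by limma, where 0.319% of the tested genes were called higher and 0.220% lower. With the replicate number as a block, 5 were called higher (PIM1, PIM3, MYC, FOS and JUNB) and 1 lower (FOSL1), where 10.2% of tested genes were called higher and 12.4% lower. The FOS call was made by limma with the block alone: edgeR's quasi-likelihood test with the block called the other 4 higher and FOSL1 lower. Over at most 13008 genes that test called 1481 higher and 1566 lower. Without a block, edgeR's test called PIM1 higher, and DESeq2 called PIM1 and PIM3 higher and FOSL1 lower. Over the same genes, edgeR's test without a block called 42 higher and 25 lower, and DESeq2 called 218 higher and 304 lower. Groups that do not overlap were found for 4 genes higher and 1 lower, where 9.03% and 10% of tested genes had them. The authors' deposited table marked PIM1 as higher, with a log2 fold change of 1.08, and none of the other 9, where 0.746% of its genes were marked higher and 0.815% lower. In the authors' deposited table PIM3 had an adjusted p under 0.05 and a log2 fold change of 0.44 but no mark. Nothing is read from these counts about the set, since the contrast chose it.

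The PIM1 call by limma was lost in the FPKM values and when any 1 library other than dox replicate 1 was left out, while the log2 difference stayed between 0.96 and 1.23 over 16 alternatives. The MYC difference stayed between 0.19 and 0.26 and was called in 2 of the 16, both with the block. The sign of FOSL2, JUN and JUND varied with the setting, and that of the other 7 did not.

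Genes around the set were read from 8 lists of the same pathways, counted in the fit over all 13153 genes. By limma without the block, 0 genes were called in any of the 8 lists, and edgeR's quasi-likelihood test also called 0. At an unadjusted p under 0.05 limma had 22 of 155 list entries, against 1710 of all 13153 tested genes, a similar share. DESeq2 called HMGA2, MXD3 and SKP2, each lower in dox, where it called 304 genes lower over all genes. The counts below are those of limma with the replicate block, where 10.2% of all tested genes were higher and 12.4% lower and the median log2 difference of all genes was -0.0022.

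Of the other AP-1 and ATF partners, 10 of 13 were tested, 2 were higher and 0 lower, and the median log2 difference was -0.025. FOSB, an immediate-early FOS relative, had 52.3, 86.3 and 67.0 normalised counts in dox replicates 1 to 3, against 27.2, 48.4 and 25.9 in no dox replicates 1 to 3. Its groups did not overlap, its log2 difference was 1.03 (SE 0.31), and its limma adjusted p was 0.205 without and 0.00405 with the block. MAFG, a small MAF protein that pairs with NRF2, was 0.21 higher with overlapping groups (limma adjusted p with the block 0.0104).

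Of the other immediate-early and early response genes, 23 of 26 were tested, 7 were higher and 4 lower, and the median was -0.037. EGR3, a relative of EGR1, had 62.7, 102 and 91.2 normalised counts in dox replicates 1 to 3, against 37.6, 58.9 and 46.0 in no dox replicates 1 to 3. The groups did not overlap, and the log2 difference was 0.83 (limma adjusted p 0.219 without and 0.00470 with the block). BTG2, an antiproliferative early response gene and known p53 target, was 0.73 higher with overlapping groups. Its limma adjusted p was 0.357 without and 0.000476 with the block. Lower were KLF6, a zinc finger factor, with -0.36, and IER3, an early survival gene, with -0.23 (limma adjusted p with the block 0.00107 and 0.00585).

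EGR3 and FOSB, like FOS and EGR1, were highest in replicate 2 of both groups. Of the 23 early response genes 8 had that order (EGR3, NAB2, IER2, IER3, NR4A1, KLF6, KLF10 and PPP1R15A), or 34.8%, against 20.4% of all tested genes. Of the 10 tested AP-1 and ATF partners FOSB alone had it, or 10%. BTG2, GADD45B and MCL1, or 13.0% of the 23, were highest in replicate 1 of both groups, as JUN and MYC were, against 27.2% of all tested genes. The median within-group SD of the 23 genes was 0.21 log2 units, against 0.15 over all tested genes. It was 0.22 for the 10 AP-1 and ATF partners and 0.14 for the 10 genes of the set. These medians were not matched for level, and low counts spread more.

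Of the MAPK and SRF route, which carries growth factor signals to the promoters of immediate-early genes, all 26 genes were tested, 3 were higher and 8 lower, and the median was -0.055. EGFR, the receptor at the top of the route, was 0.26 higher (limma adjusted p with the block 0.00337), and ELK1, the partner of SRF, was 0.21 higher (0.0143). NRAS was lower with a log2 difference of -0.28, and the kinase MAP2K1 lower with -0.22 (limma adjusted p with the block 0.00265 and 0.0102). MAPK3, MAPK9, MAPK14, MAPKAPK2 and ELK3 were also among the lower genes, MAPK3 with overlapping groups.

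Of the AP-1 target genes, 17 of 22 were tested, 2 were higher and 4 lower, and the median was -0.15. HMGA2, a chromatin protein of growing mesenchymal cells, had 4951, 5624 and 5606 normalised counts in dox replicates 1 to 3, against 6605, 7918 and 7921 in no dox replicates 1 to 3. Its groups did not overlap, and its log2 difference was -0.47 (limma adjusted p 0.0947 without and 0.000119 with the block). IL8, a chemokine now named CXCL8, was lower with -0.71, and HBEGF, an EGFR ligand, lower with -0.28 (limma adjusted p with the block 0.00443 and 0.00731). KRT18, a keratin, was 0.32 higher (limma adjusted p with the block 0.000804). The groups of IL8, HBEGF and KRT18 overlapped, and without the block their limma adjusted p was 0.428, 0.371 and 0.621.

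Of the MYC network, 17 of 19 were tested, 2 were higher and 3 lower, and the median was 0.055. MXD3, a MAX partner that represses at MYC sites, had 196, 349.8 and 249 normalised counts in dox replicates 1 to 3, against 520.3, 598 and 463 in no dox replicates 1 to 3. The groups did not overlap, and its log2 difference of -1.02 (SE 0.21) was the lowest in the list (limma adjusted p 0.0833 without and 0.000346 with the block). Its relatives MXD4 and MNT went the other way, 0.20 and 0.25 higher (limma adjusted p with the block 0.0162 and 0.0322). KIAA1524, also called CIP2A, which protects MYC protein from degradation, was lower with -0.36 (limma adjusted p with the block 0.00617). MAX, the obligate partner of MYC, was lower with -0.16 (limma adjusted p with the block 0.0489). The groups of MNT and MAX overlapped (limma adjusted p without the block 0.431 and 0.480), and those of MXD4 and KIAA1524 did not.

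Of the MYC target genes, all 30 were tested, 5 were higher and 2 lower, and the median was 0.079. RRS1 and RRP12, both needed to build ribosomes, were 0.44 and 0.34 higher, with overlapping groups (limma adjusted p with the block 0.000297 and 0.00208). CAD, the enzyme that starts pyrimidine synthesis, was lower with -0.22, and CDK4, a kinase of the G1 phase, lower with -0.15 (limma adjusted p with the block 0.00970 and 0.0396). The groups of CAD overlapped, and those of CDK4 did not. None of the 30 reached an unadjusted p under 0.05 in limma without the block.

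Of the JAK-STAT route to the PIM genes, 18 of 20 were tested, 2 were higher and 4 lower, and the median was 0.054. LIF, a cytokine that signals through STAT3, was 0.32 higher without overlap between the groups (limma adjusted p with the block 0.00131). IL6R, the interleukin 6 receptor, was lower with -0.71: it had 71.9, 70.2 and 57.1 normalised counts in dox replicates 1 to 3, against 99.4, 112 and 115 in no dox replicates 1 to 3 (limma adjusted p 0.117 without and 0.00856 with the block). OSMR, the oncostatin M receptor, was lower with -0.23, STAT3 with -0.20 and STAT6 with -0.14 (limma adjusted p with the block 0.0140, 0.00771 and 0.0380). Of the IL6R, OSMR, STAT3 and STAT6 values, only those of IL6R did not overlap between the groups.

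Of the PIM kinase substrates, all 14 were tested, 1 was higher and 4 lower, and the median was -0.064. CDKN1A, the CDK inhibitor p21, was 0.44 higher with overlapping groups (limma adjusted p with the block 0.000502). SKP2, the ubiquitin ligase subunit that removes p27, had 510.3, 583 and 592 normalised counts in dox replicates 1 to 3, against 760.5, 759.9 and 710.4 in no dox replicates 1 to 3. Its groups did not overlap and its log2 difference was -0.41 (limma adjusted p 0.105 without and 0.00377 with the block). MAP3K5, a stress kinase, was lower with -0.31 without overlap between the groups (limma adjusted p with the block 0.00539). CBX3 and RPS6KB1 were lower with -0.16 and -0.19, with overlapping groups (limma adjusted p with the block 0.0273 and 0.0299).

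**Figure D5:**
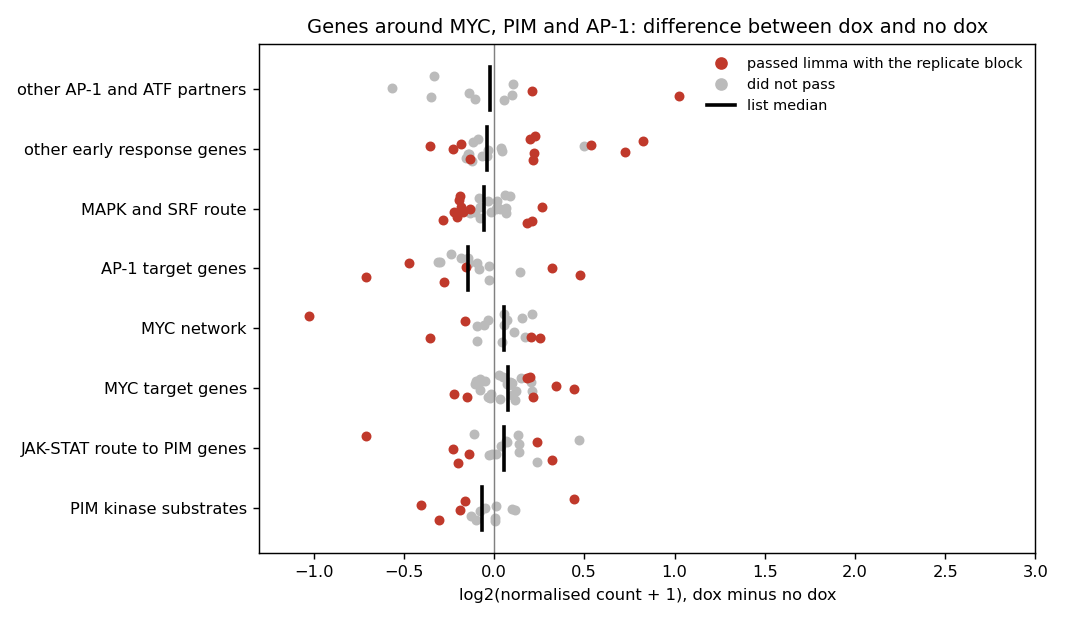
Log2 difference of dox minus no dox (x axis, on log2(normalised count + 1)) of each tested gene in the 8 lists, in red where limma with the replicate block gave an adjusted p under 0.05, with a bar at the list median. List medians lie between -0.15 and 0.079, and single genes such as FOSB (1.03) and MXD3 (-1.02) lie far from them.

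Over the 6 libraries the profile most like that of PIM1 was UBALD2. After each profile was centred on its own mean, the root-mean-square difference was 0.090 log2 units, where the PIM1 profile itself varied by 0.57. UBALD2 had 1915, 2780.1 and 2618 normalised counts in dox replicates 1 to 3, against 1059.9, 1367 and 1237 in no dox replicates 1 to 3. It was followed by CLU (clusterin) at 0.19 and SEMA3F (a semaphorin) at 0.19, and UBALD2 was the only one of 6539 genes compared within 0.1 log2 units of PIM1.

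MYC was no such case: 8.96% of the 6539 genes lay within 0.1 log2 units of its flat profile, which varied by 0.13, and the nearest were NRD1 (0.020), RFWD2 (0.026) and CPS1 (0.027). For FOS, whose profile varied by 0.84, none lay within 0.1 log2 units, and the nearest were COL6A3 (0.44), RELN (0.50) and TRIB1 (0.50). All genes compared were of at least median level, whereas in no dox FOS stood above 0.547% of genes and PIM1 above 39.8%. FOS rests on 7 to 73 reads per library, so a close match to it was unlikely from the start. These profiles share libraries and the dox contrast, so likeness is a description only.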

How the data were processed

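The sample titles gave the group and replicate number of each of 6 polyadenylated RNA libraries. The submitters' processing notes list bcl2fastq, Trimmomatic, TopHat, edgeR and the build hg19, with neither versions nor roles, and strand use in counting is not stated. For 13161 genes the authors deposited normalised counts, a signal equalised for depth by an unstated formula, with column totals of 27684571 to 29981945. The authors also deposited FPKM for 57773 genes, which equal CPM per kilobase of their gene width. Their deposited comparison table of 13008 genes holds CPM, that width, a log2 fold change, p-values and marks of higher or lower genes, per the file headers. Each deposited CPM value was a whole multiple of 1 read (tolerance 0.01), from which reads and totals were taken. The width exceeds the gene's own span for 16.4% of genes, so levels per kilobase of merged exons, with lengths from GENCODE 29 by gene ID, were added after the data were seen.

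Limma-trend was run two-sided on log2(normalised count + 1) for the 13153 genes that reached 10 normalised counts in 3 or more libraries (8 removed), with Benjamini-Hochberg adjustment over all of them. Fold changes on this scale understate the change of low genes. Replicate numbers 1 to 3 in the titles recur in both groups. Across genes, libraries with the same number deviated together from the means of their groups (correlations of 0.745, 0.726 and 0.768), so the numbers were taken to pair the libraries. Results with that number as a block, which leaves 2 residual degrees of freedom, are printed beside a call that they alter. Each printed SE is from the fit without the block. With the block the SE of every gene of the set was smaller, for PIM1 0.069 against 0.16 and for EGR1 0.10 against 0.32. The chi-square per degree of freedom between any pair of libraries was at least 16.0.

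The 10 genes and the 8 pathway lists were chosen with earlier results of these data known. Named in each list were the 2 genes with the smallest p that did not pass and, with the block, the 2 highest and 2 lowest called genes, with further genes called with the block named to complete a count. Some genes of the lists are not reported here. Genes alike in profile were the 3 nearest by root-mean-square difference among 6539 genes of at least median level. Alternatives were pseudocounts of 0.25 and 5, no filter or a minimum of 50, log2(FPKM + 0.1) and a rescaling by median of ratios. Further alternatives were edgeR's quasi-likelihood test and DESeq2 on the recovered reads, the block, leaving out each library and, for levels alone, TPM. The fits were tested on simulated data. Software was Python 3.11.15 with numpy 2.4.6, pandas 2.3.3 and matplotlib 3.10.9, and R 4.3.3 with DESeq2 1.42.0, edgeR 4.0.16 and limma 3.58.1.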

Additional observations from a re-analysis of the deposited data

Results flagged for a closer look

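Genes from the lists that are outside the normalised table, and so outside every comparison above, still have FPKM values. Of 15 such genes, 10 were above 0 in 4 or more libraries, and 3 of these were higher in each dox library than in any no dox library. Of all 9207 genes outside the table with that many values above 0, 5.08% were so. MMP1 and MMP10 met that minimum only because all 3 dox libraries were above 0, so nothing is read from this count. MMP1, a collagenase and AP-1 target, averaged 0.0758 FPKM in dox and 0.00524 FPKM in no dox, which corresponds to 7, 12 and 1 reads in dox replicates 1 to 3, against 0, 1 and 0 in no dox replicates 1 to 3. MMP10, a stromelysin and AP-1 target, averaged 0.0273 FPKM in dox and 0.00441 FPKM in no dox, or 3, 2 and 2 reads in dox, against 0, 1 and 0 in no dox. NR4A3, an orphan nuclear receptor of the early response, averaged 0.0663 FPKM in dox and 0.0275 FPKM in no dox, or 21, 38 and 25 reads in dox, against 8, 7 and 7 in no dox. These reads are the smallest whole numbers in the ratio of the values times the library totals. MMP1 had 1 read in both dox replicate 3 and no dox replicate 2, which differ in FPKM through the library totals alone. All 3 were picked out for a signal in dox above the no dox level in data no comparison used, and none of these differences was tested.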

How the results depend on the processing

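The counts of called genes depend on how the pairing of the libraries is treated. Limma without the replicate block called 42 genes higher and 29 lower in dox. With the replicate block it called 1338 higher and 1627 lower, and edgeR's quasi-likelihood test with the block called 1481 higher and 1566 lower. DESeq2 on the recovered reads called 218 higher and 304 lower, and the FPKM values gave 15 higher and 1 lower. Leaving out 1 library at a time gave 3 to 16 genes higher and 0 to 5 lower. In limma the block changed calls among the 10 genes for PIM3, MYC, FOS, FOSL1 and JUNB, of which FOS was not called by edgeR's test with the block, and left those of PIM1, FOSL2, JUN, JUND and EGR1 on their side of the threshold. No log2 difference of the 10 genes moved by more than its replicate spread, and none of the called ones changed sign, under the alternatives run. FOS had 31 to 73 reads in dox libraries and 7 to 39 in no dox libraries, and its log2 difference ranged from 0.59 to 1.64 over 14 alternatives, and that of EGR1 from 0.028 to 0.62 over 16. FOS did not pass the minimum used for FPKM or that of 50. The level of MYC in no dox was 9.03 FPKM with the authors' width and 24.5 with merged exons. What sets the difference between the tools was not tested.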
